A study of Homo sapiens with 14 samples.

Results

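The 10 genes described here encode the FANCD2-FANCI clamp of the Fanconi anemia (FA) pathway, the enzymes that add and remove its ubiquitin, and the nucleases and nuclease scaffold that cut DNA at an interstrand crosslink. They are FANCD2, FANCI, UBE2T, USP1, FAN1, SLX4, ERCC4, ERCC1, MUS81, and EME1. They were taken by gene name from the count tables, which hold 59471 gene names, and all 10 passed the filter on low counts in each of the 6 comparisons. SCC23 is an established cell line of head and neck squamous cell carcinoma (HNSCC), and poly(A) RNA was sequenced from KMT2D-WT cells and from the KMT2D-KO lines KO1 and KO2. Per the methods, the KMT2D-KO lines came from cells transfected with a Cas9-GFP plasmid carrying a guide to KMT2D and sorted for GFP, the plasmid of the controls carried a guide to LacZ, and no cloning of single cells is described. Before RNA was taken the medium held either high glucose or none, the latter for 6 h. Each of these conditions had 3 KMT2D-WT libraries (1 in experiment 1 and 2 in experiment 2) and 4 KMT2D-KO libraries (1 labelled KO1 and 1 labelled KO2 in each experiment), 14 libraries in all.

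An interstrand crosslink ties both strands of DNA together and stops a replication fork. The FA core complex, with UBE2T as its ubiquitin-conjugating enzyme, attaches ubiquitin to FANCD2 and FANCI, and the modified pair closes around DNA. USP1, held active by its partner WDR48, takes the ubiquitin off again. Ubiquitinated FANCD2 recruits SLX4, a scaffold that carries the nucleases ERCC4-ERCC1 (also called XPF-ERCC1), MUS81-EME1, and SLX1, whereas the nuclease FAN1 binds the modified pair by itself. ERCC4-ERCC1 also makes the 5′ incision of nucleotide excision repair. KMT2D is a methyltransferase that places H3K4me1 at enhancers, and the comparison asks how its loss and the lack of glucose moved the transcripts of these genes.

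Several features of the libraries bear on every value below. Libraries summed to between 15669154 and 62968057 counts, and the lowest count of any of the 10 genes in any library was 70, for ERCC4. For 4 libraries, those of experiment 2 with glucose, a fragment could add a count for each of its mates. In glucose-deprived cells of experiment 2, the 2 KMT2D-WT libraries differed from each other by a chi-square of 1.65 per gene and the 2 KMT2D-KO libraries by 1.71, against 23.0 to 72.7 in the other pairs of the same group and experiment. Those other pairs are not fully alike, since the KMT2D-KO pairs set KO1 against KO2. The other KMT2D-WT pair (25.3) came from libraries in which both mates could be counted. In the close KMT2D-KO pair the library labelled KO1 went against its label, since over 32 genes that separate the lines in glucose it lay at a mean log2 distance of 0.80 from line KO2 and 4.50 from line KO1. The genotype comparison without glucose was therefore also run with these close pairs summed, which lowered the share of all genes called to 16.5% of 16867, and without that library. Of 10 squamous epithelial markers, KRT6A had at most 1.13 CPM in any library and the other 9 were present. Of 8 markers of other cell types, PTPRC had at most 0.0627 CPM in any library, while MLANA reached 2.29 CPM in KMT2D-WT cells with glucose. COL1A1 was the one that changed between the genotypes in both glucose conditions, with log2 fold changes of 1.26 with glucose (adjusted p = 9.06e-04) and 1.33 without (adjusted p = 3.98e-04, or 0.0250 with the close pairs summed). The other marker tested with glucose had -0.58 and was not called. The 8 markers summed to between 7.33 and 7.78 CPM in KMT2D-WT and between 12.9 and 18.0 CPM in KMT2D-KO cells with glucose. Without glucose they summed to between 3.81 and 5.76 and between 7.58 and 14.3 CPM. The part of such cells or transcripts in the results below was not tested. In bulk RNA, fewer cells that express a gene cannot be told apart from less of its RNA per cell.

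KMT2D itself was read first. The guide of line KO1, with its PAM in capitals, matches the minus strand of hg38 at chr12:49022292-49022311, in exon 53 of 55 of the canonical KMT2D transcript of GENCODE 44 (guide sgKMT2D-1: attgatgctacgttgaccggCGG). The guide of line KO2 was not placed, because its printed sequence, which may not be complete, had no exact match on this chromosome; nothing follows from that about its target. A frameshift in the coding sequence need not lower the mRNA, so these levels are a limited check of the genotype. The paper reports KMT2D mutations by genomic sequencing and the knockout by western blot, neither of which was examined here. KMT2D mRNA stood at 279, 266, and 271 CPM (counts scaled to a common library size, with TMM normalization over all 14 libraries) in KMT2D-WT cells with glucose. In KMT2D-KO cells with glucose it was 182 and 184 CPM in KO1 and 323 and 373 CPM in KO2 of experiments 1 and 2. Line KO1 thus lay below and line KO2 above every KMT2D-WT library, and the log2 fold change over both lines was -0.02 (95% confidence interval -0.58 to 0.54, adjusted p = 0.967). Without glucose the levels were 239, 233, and 230.5 CPM in KMT2D-WT cells. Libraries labelled KO1 had 19.9 CPM in experiment 1 and 152 CPM in experiment 2, and those labelled KO2 had 190.2 and 145 CPM. All 4 lay below every KMT2D-WT library, with a log2 fold change of -0.90 (interval -2.31 to 0.52, adjusted p = 0.247) that became -0.58 (adjusted p = 2.44e-08) without the KO1 library of experiment 1. That fit called 74.4% of 16739 genes, lower and higher together, so a call gained in it says little about a single gene. With the close pairs summed KMT2D had -0.97 (adjusted p = 0.455).

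The genes lie on 7 chromosomes, and RefSeq start sites were found for 9 of the 10 (13 start sites on GRCh38.p14; FANCI was not matched). The 250 bases before the start are shown for the 4 genes whose KMT2D-KO effect differed between the glucose conditions, FAN1, SLX4, EME1, and MUS81, taking for FAN1 the first of its 2 listed starts. Each is written 5′ to 3′ along the gene, with matches to 5 promoter motifs in capitals.
FAN1 (chr15:30903602-30903851, plus strand): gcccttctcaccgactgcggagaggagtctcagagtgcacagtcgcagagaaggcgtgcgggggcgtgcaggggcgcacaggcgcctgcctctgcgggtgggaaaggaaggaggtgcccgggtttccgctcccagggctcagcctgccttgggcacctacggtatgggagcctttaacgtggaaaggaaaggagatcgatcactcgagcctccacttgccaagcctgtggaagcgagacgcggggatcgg
SLX4 (chr16:3611607-3611856, minus strand): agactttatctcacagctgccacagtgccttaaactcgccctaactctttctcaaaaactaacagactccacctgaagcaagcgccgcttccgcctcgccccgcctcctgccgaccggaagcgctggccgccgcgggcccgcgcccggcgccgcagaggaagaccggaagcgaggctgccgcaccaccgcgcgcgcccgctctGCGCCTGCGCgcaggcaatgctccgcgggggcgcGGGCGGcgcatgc
EME1 (chr17:50372979-50373228, plus strand): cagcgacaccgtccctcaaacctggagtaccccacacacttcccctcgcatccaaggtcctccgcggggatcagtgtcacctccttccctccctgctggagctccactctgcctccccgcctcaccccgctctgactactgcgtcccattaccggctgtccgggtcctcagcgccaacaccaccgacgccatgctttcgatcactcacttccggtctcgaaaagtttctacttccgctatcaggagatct
MUS81 (chr11:65860183-65860432, plus strand): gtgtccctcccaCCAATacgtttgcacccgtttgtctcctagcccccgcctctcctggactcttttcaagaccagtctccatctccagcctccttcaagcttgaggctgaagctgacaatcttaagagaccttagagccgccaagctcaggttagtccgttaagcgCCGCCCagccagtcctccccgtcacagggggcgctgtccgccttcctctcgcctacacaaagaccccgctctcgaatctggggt
Both strands were searched for the letters of an E2F site, TTTNNCGC, those of the cell cycle element known as CHR, TTTGAA, those of the GC box bound by Sp1, GGGCGG, the pentamer CCAAT, and an NRF1 site, which reads GCGC, any base, then TGCGC. None of the matches in the 13 windows overlapped another. SLX4 held an NRF1 match starting 47 bases and a GC box starting 13 bases before the start. MUS81 held a CCAAT box 238 bases and a reversed GC box 84 bases before the start, and the FAN1 and EME1 windows held none of the 5. Over the windows of all 35116 listed starts, 5.92% held the E2F letters, 13.3% the CHR letters, 32.0% CCAAT, 42.6% the GC box, and 5.07% the NRF1 letters. Of the 13 windows of the 9 genes, 0 held the E2F letters, 3 the CHR letters (UBE2T, USP1, and ERCC1), and 4 CCAAT (4 genes). The GC box was in 6 windows (5 genes) and the NRF1 letters in 2 (UBE2T and SLX4). A match is a match of letters only, and its absence says only that these letters are not in these windows.

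**Figure D1:**
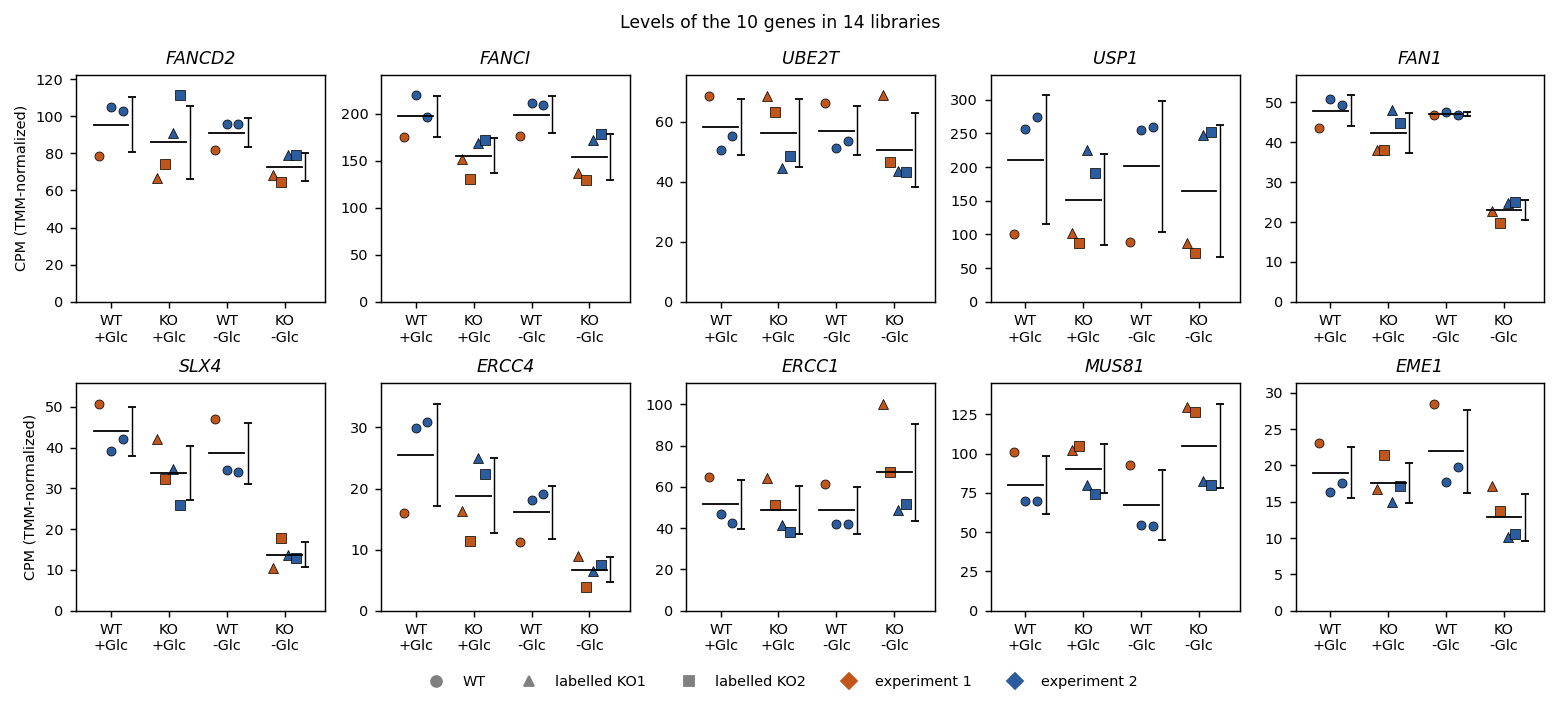
TMM-normalized CPM of each gene in each library, by genotype and glucose (+Glc and -Glc). Symbols give the labelled line, colours the experiment, horizontal bars the group mean and vertical bars 1 SD (n = 3 for WT and n = 4 for KO). FAN1 and SLX4 in KMT2D-KO cells without glucose sit below all other groups, whereas USP1 splits by experiment in every group.

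The ubiquitinated pair came first among the roles. FANCD2 (chr3:10026414-10101932) carries the ubiquitin that marks an active pathway. In glucose it had 78.4, 105, and 103 CPM in KMT2D-WT cells and 66.7, 74.3, 91.2, and 111 CPM in KMT2D-KO cells (KO1 and KO2 of experiment 1, then KO1 and KO2 of experiment 2, the order kept below). The groups overlapped, with the lowest and the highest library both being KMT2D-KO, and the log2 fold change was -0.08 (interval -0.29 to 0.13, adjusted p = 0.599). Without glucose FANCD2 had 82.0, 95.9, and 95.6 CPM in KMT2D-WT and 68.5, 64.5, 79.3, and 78.9 CPM in KMT2D-KO cells. Every KMT2D-KO library was below every KMT2D-WT library, and FANCD2 fell by 0.30 on the log2 scale (SE 0.07, adjusted p = 0.00992). That is 0.810 times the KMT2D-WT level, a small difference. The call was lost with the close pairs summed (-0.29, adjusted p = 0.186), without the library labelled KO1 (adjusted p = 0.0503) or KO2 of experiment 2 (adjusted p = 0.0562), with an offset for gene length (-0.15, adjusted p = 0.167), and without experiment as a covariate (-0.34, adjusted p = 0.148). Among 11 alternative settings, fits with a library left out not counted, the call was lost in 6. The annotation names a pseudogene, FANCD2P2, with which reads could be shared. Per the methods only uniquely mapped reads were counted, so a read that maps to both would count for neither.

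FANCI (chr15:89243945-89317261) is the partner that is ubiquitinated together with FANCD2. In glucose its levels were 176, 219.6, and 196 CPM in KMT2D-WT cells and 151, 130.2, 169, and 172 CPM in KMT2D-KO cells. The groups did not overlap, and FANCI fell by 0.30 (SE 0.08, adjusted p = 0.0287), to 0.815 times the KMT2D-WT level. Without glucose it had 176, 211.5, and 209 CPM in KMT2D-WT and 137, 129, 172, and 178 CPM in KMT2D-KO cells. Here the groups touched only across experiments, since within each experiment the KMT2D-KO levels stayed under the KMT2D-WT levels, and the fall was 0.34 (SE 0.07, adjusted p = 0.00530). With glucose the call was lost when any 1 of 5 libraries was left out, with adjusted p from 0.0531 without KO2 of experiment 2 to 0.153 without KMT2D-WT of experiment 1 (0.0571 without KO2 of experiment 1, 0.0645 without KO1 of experiment 2, and 0.121 without a KMT2D-WT library of experiment 2). Without glucose it held in each such fit, and was lost with the close pairs summed (adjusted p = 0.121), the length offset (-0.13, adjusted p = 0.259), or no covariate (adjusted p = 0.138). Among 11 alternative settings the call was lost in 5 with glucose and in 5 without.

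Neither ubiquitin enzyme was called in either glucose condition in the reported fits. Among 11 alternative settings, each was called lower without glucose in 2, and USP1 with glucose in 1. These settings called up to 74.5% of all genes without glucose and up to 35.0% with, so these few calls say little about either gene. UBE2T (chr1:202331657-202341980), the conjugating enzyme, had 68.7, 50.7, and 55.1 CPM in KMT2D-WT and 68.5, 63.3, 44.7, and 48.5 CPM in KMT2D-KO cells with glucose. Without glucose these levels were 66.3, 51.2, and 53.6 against 68.9, 46.6, 43.7, and 43.4 CPM. Every library of experiment 1 was above those of experiment 2 of its group, and in glucose-deprived KMT2D-KO cells the KO1 library of experiment 1 stood apart from the other 3. The log2 fold changes were -0.13 with glucose (interval -0.32 to 0.06, adjusted p = 0.317) and -0.26 without (interval -0.61 to 0.10, adjusted p = 0.196). Without that KO1 library the second became -0.38 (adjusted p = 1.74e-06), in the fit that called 74.4% of all genes, and with the close pairs summed -0.22 (adjusted p = 0.522).

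USP1 (chr1:62436297-62451804), the deubiquitinase, followed the experiment more than any other of the 10. With glucose it had 101 CPM in the KMT2D-WT library of experiment 1 against 257 and 275 CPM in those of experiment 2, and 102.1 and 87.2 against 225 and 191 CPM in KMT2D-KO cells. Without glucose it had 89.2 against 255 and 259.8 CPM in KMT2D-WT and 87.6 and 73.0 against 248 and 252 CPM in KMT2D-KO cells. Experiment 2 was thus 2.20 to 3.11 times experiment 1 in each of the 4 groups, a spread far wider than any difference between genotypes. With experiment as a covariate, the log2 fold change was -0.24 with glucose (interval -0.48 to 0.00, adjusted p = 0.130) and -0.10 without (interval -0.32 to 0.11, adjusted p = 0.370). Without the KO1 library of experiment 1, where 74.4% of all genes were called, the latter was -0.14 (adjusted p = 0.00183), and with the close pairs summed it was -0.10 (adjusted p = 0.668). Means of ERCC4 were 1.66 to 1.90 times as high in experiment 2 in 3 groups and 1.09 times in glucose-deprived KMT2D-KO cells, where the libraries of experiment 1 lay on both sides of those of experiment 2. MUS81 and ERCC1 were 0.583 to 0.744 and 0.600 to 0.690 times as high in experiment 2.

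SLX4 (chr16:3581181-3611606), the scaffold of the nucleases, had the largest fall of the 10 genes in glucose-deprived cells in this fit. With glucose its levels were 50.7, 39.2, and 42.0 CPM in KMT2D-WT and 42.0, 32.3, 34.8, and 26.0 CPM in KMT2D-KO cells. They overlapped across experiments but not within either one, and SLX4 fell by 0.42 (SE 0.13, adjusted p = 0.0455). Glucose-deprived cells had 47.2, 34.5, and 34.1 CPM in KMT2D-WT and only 10.5, 17.9, 13.7, and 12.9 CPM in KMT2D-KO cells. The highest KMT2D-KO library was well under the lowest KMT2D-WT library, and SLX4 fell by 1.54 (SE 0.16, adjusted p = 3.84e-04), to 0.345 times the KMT2D-WT level. This held with the close pairs summed (-1.58, adjusted p = 0.0251), without the library labelled KO1 of experiment 2 (-1.58, adjusted p = 0.00332), and with every other single library left out (-1.65 to -1.41). In glucose the call was fragile: it was lost without any 1 KMT2D-WT library (adjusted p = 0.202 without that of experiment 1, 0.108 and 0.140 without those of experiment 2), without KO2 of experiment 1 (0.0828) or experiment 2 (0.101), with the length offset (0.0515), and without the covariate (0.353). Among 11 alternative settings this call in glucose was lost in 6.

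FAN1 (chr15:30890559-30943108) is the nuclease that binds ubiquitinated FANCD2 directly. With glucose it had 43.4, 50.8, and 49.4 CPM in KMT2D-WT and 38.1, 38.1, 47.9, and 44.9 CPM in KMT2D-KO cells. These groups overlapped, with a log2 fold change of -0.13 (interval -0.32 to 0.05, adjusted p = 0.288). After glucose deprivation it had 46.8, 47.6, and 46.8 CPM in KMT2D-WT cells, among which it hardly varied (SD 0.474), and 22.9, 19.7, 24.7, and 25.1 CPM in KMT2D-KO cells. No KMT2D-KO library reached 0.6 of a KMT2D-WT library, and FAN1 fell by 1.03 (SE 0.09, adjusted p = 2.04e-04), to 0.491 times. Leaving out single libraries gave falls from 0.98 to 1.05, and the gene was called with the close pairs summed (-1.04, adjusted p = 0.0238), with DESeq2, with the length offset, and without the covariate. FAN1 shares 9.0% of its exonic bases with MTMR10 on the opposite strand, and counting ignored strand.

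ERCC4 (chr16:13920154-13952348) is the catalytic subunit of the XPF-ERCC1 nuclease, and it had the lowest count of the 10 in any library. In glucose it had 15.9, 29.8, and 30.8 CPM in KMT2D-WT and 16.3, 11.5, 25.1, and 22.5 CPM in KMT2D-KO cells. These overlapped (log2 fold change -0.29, interval -0.59 to 0.01, adjusted p = 0.146), and without the KO1 library of experiment 1 the value was -0.39 (adjusted p = 0.0311). Without glucose it had 11.2, 18.04, and 19.1 CPM in KMT2D-WT and 8.90, 3.93, 6.55, and 7.45 CPM in KMT2D-KO cells. All 4 lay below the lowest KMT2D-WT library, and ERCC4 fell by 1.19 (SE 0.30, adjusted p = 0.0138). The call depended on the close pairs, being lost when they were summed (-1.06, adjusted p = 0.148), without the library labelled KO1 (adjusted p = 0.0628) or KO2 (adjusted p = 0.0618) of experiment 2, and without 1 KMT2D-WT library of experiment 2 (adjusted p = 0.0504). Among 11 alternative settings the call of ERCC4 was lost in 3. A gene on the opposite strand, AC010401.1, overlaps 25.7% of its exonic bases.

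ERCC1 (chr19:45407334-45478828), the DNA-binding partner of ERCC4, did not follow it. In glucose it had 64.9, 47.0, and 42.6 CPM in KMT2D-WT and 64.3, 51.2, 41.3, and 38.2 CPM in KMT2D-KO cells, with a log2 fold change of -0.16 (interval -0.39 to 0.06, adjusted p = 0.283). In the absence of glucose it had 61.6, 42.1, and 42.1 CPM in KMT2D-WT and 100.2, 67.2, 48.7, and 51.8 CPM in KMT2D-KO cells. Within each experiment both KMT2D-KO libraries were above every KMT2D-WT library, at 1.36 and 1.19 times the KMT2D-WT mean, but across experiments the groups overlapped. The log2 fold change of 0.31 (interval -0.07 to 0.70) was not called (adjusted p = 0.148), nor was it with the close pairs summed (0.37, adjusted p = 0.327). It was called without KO1 (0.18, adjusted p = 0.00193) or KO2 of experiment 1 (0.38, adjusted p = 0.0391), in fits that called 74.4% and 55.0% of all genes. It was also called with no filter on low counts (adjusted p = 0.0353), in experiment 2 alone (0.21, adjusted p = 3.37e-04), and with KO2 alone (0.21, adjusted p = 0.00413), where 29.4%, 74.5%, and 67.8% of all genes were called. POLR1G on the opposite strand overlaps 28.6% of the exonic bases of ERCC1, the largest such share among the 10, and its part in these counts was not tested.

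MUS81 and EME1 form 1 nuclease, which cuts replication forks and joint molecules, and their transcripts moved apart. MUS81 (chr11:65857126-65867653), the catalytic subunit, had 101, 69.6, and 69.5 CPM in KMT2D-WT and 102.3, 105, 79.7, and 74.5 CPM in KMT2D-KO cells with glucose (log2 fold change 0.11, interval -0.07 to 0.29, adjusted p = 0.358). Without glucose it had 93.0, 54.7, and 53.8 CPM in KMT2D-WT and 129, 126, 82.6, and 80.3 CPM in KMT2D-KO cells. The groups overlapped only because experiment 1 was higher in both genotypes, as within each experiment every KMT2D-KO library was above every KMT2D-WT library. MUS81 rose by 0.52 on the log2 scale (SE 0.06, adjusted p = 7.95e-04), to 1.43 times, the only one of the 10 called higher in this comparison. It held against the loss of any 1 library (0.50 to 0.54), and was lost with the close pairs summed (0.52, adjusted p = 0.0545) and without the covariate (0.64, adjusted p = 0.149). Among 11 alternative settings the call was lost in 4, these included. CFL1 on the opposite strand overlaps 13.9% of the exonic bases of MUS81.

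EME1 (chr17:50373220-50381483), the regulatory subunit, had 23.1, 16.4, and 17.6 CPM in KMT2D-WT and 16.8, 21.5, 14.9, and 17.2 CPM in KMT2D-KO cells with glucose. These overlapped, with a log2 fold change of -0.15 (interval -0.43 to 0.14, adjusted p = 0.447). Deprived cells had 28.5, 17.7, and 19.7 CPM in KMT2D-WT and 17.1, 13.7, 10.1, and 10.6 CPM in KMT2D-KO cells. No KMT2D-KO library reached a KMT2D-WT library, and EME1 fell by 0.89 (SE 0.12, adjusted p = 0.00109), to 0.541 times. The fall was called with the close pairs summed (-0.87, adjusted p = 0.0431) and in each fit that left out a library (-0.96 to -0.84), but not without the covariate (-0.78, adjusted p = 0.0743). Among 11 alternative settings the call was lost in 3, the fit without the covariate included. LRRC59 on the opposite strand overlaps 16.4% of its exonic bases.

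Counted together, 2 of the 10 genes were lower and 0 higher in KMT2D-KO cells with glucose, where 11.7% of 20423 genes tested were lower and 13.0% higher at an adjusted p under 0.05. Without glucose 6 were lower (FANCD2, FANCI, FAN1, SLX4, ERCC4, and EME1) and 1 higher (MUS81), where 24.9% of 16782 genes were lower and 25.9% higher. The median log2 fold change of the 10 was -0.16 with glucose and -0.32 without, beside 0.02 and 0.00 over all genes tested. Genes whose KMT2D-KO libraries lay wholly below the KMT2D-WT libraries numbered 1 of 10 with glucose (FANCI), against 10.4% of all genes, and 5 of 10 without (FANCD2, FAN1, SLX4, ERCC4, and EME1), against 18.9%. None of the 10 lay wholly above, against 9.66% and 16.3% of all genes. By role, both clamp genes, 0 of 2 ubiquitin enzymes, and 4 of 6 nuclease and scaffold genes were lower without glucose, with medians of -0.32, -0.18, and -0.96. With the close pairs summed, 3 of the 10 were called (FAN1, SLX4, and EME1), where 16.5% of 16867 genes were called, lower and higher together. With no experiment covariate 3 were called (FAN1, SLX4, and ERCC4), where 21.8% of all genes were. In experiment 1 alone, where the 1 KMT2D-WT library is assumed to vary like the KMT2D-KO libraries, edgeR called 0 of all 17219 genes, so the 0 calls among the 10 (2 with an unadjusted p under 0.05) say nothing about them.

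**Figure D2:**
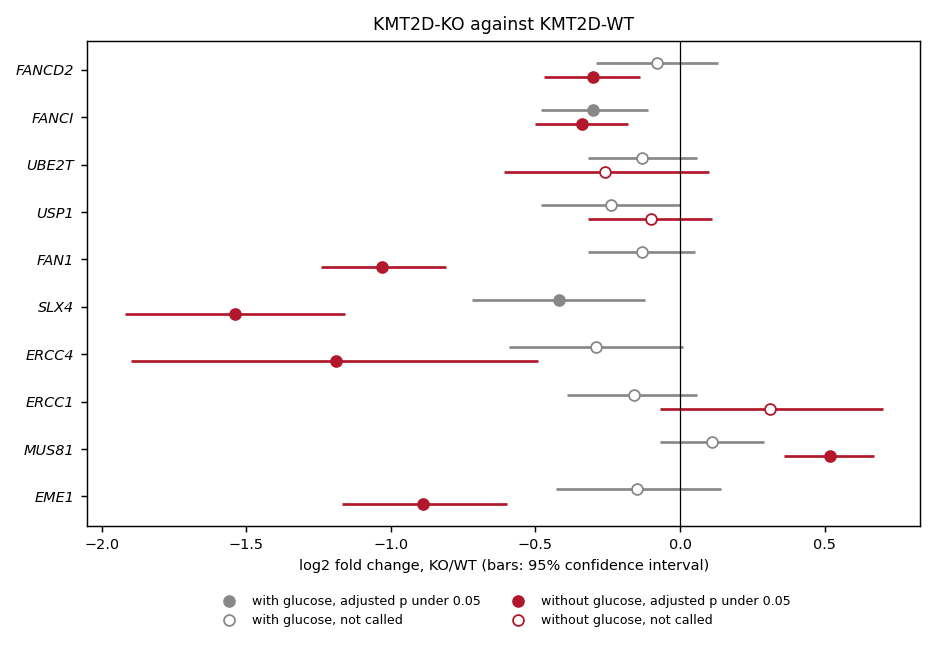
Log2 fold change of each gene in KMT2D-KO against KMT2D-WT cells with glucose (grey) and without (red), from edgeR fits of 7 libraries each. Bars are 95% confidence intervals and filled points have an adjusted p under 0.05. SLX4, ERCC4, FAN1, and EME1 are lowest without glucose, and MUS81 is the gene called higher.

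**Figure D3:**
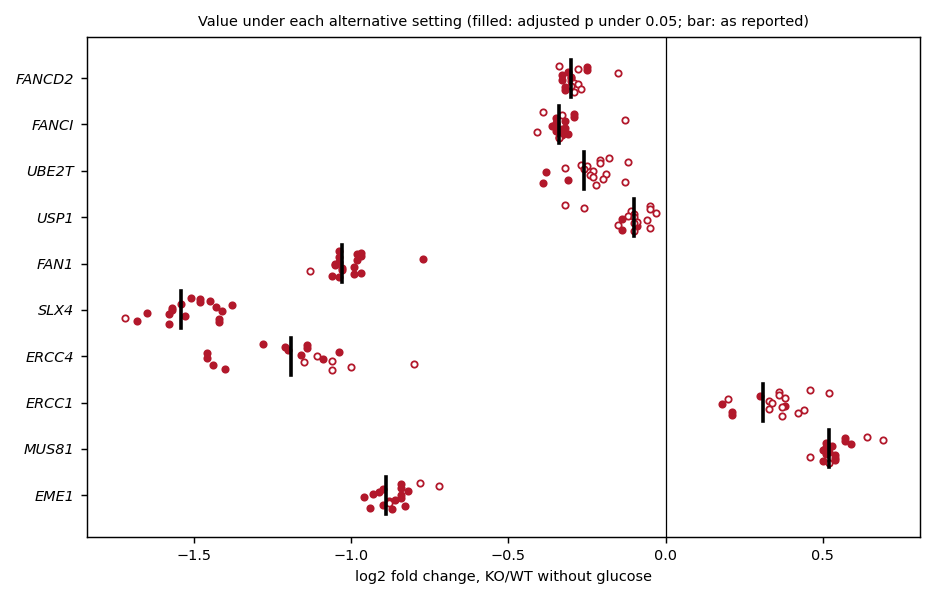
Log2 fold change of each gene in KMT2D-KO against KMT2D-WT cells without glucose under each alternative setting and each left-out library (points, filled where the adjusted p is under 0.05), with the reported value as a black bar. All points of FAN1, SLX4, ERCC4, and EME1 lie below 0 and all of MUS81 and ERCC1 above 0, and FAN1 and SLX4 have 1 open point each, that of experiment 1 alone.

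Whether the KMT2D-KO effect itself depended on glucose was tested in 1 fit of all 14 libraries, as the effect without glucose minus the effect with glucose. This difference was called for 4 of the 10 genes, 3 lower (where 6.54% of 18678 genes tested were lower) and 1 higher (4.73%). FAN1 had a difference of -0.87 (SE 0.12, adjusted p = 0.00119), SLX4 of -1.08 (SE 0.24, adjusted p = 0.0136), and EME1 of -0.71 (SE 0.17, adjusted p = 0.0204). MUS81 had a difference of 0.43 (SE 0.10, adjusted p = 0.0171). Of these 4 only FAN1 was called both in each fit that left out a library (-0.90 to -0.78) and with the close pairs summed (-0.90, adjusted p = 0.0250). Summing the pairs ended the calls of SLX4 (-1.14, adjusted p = 0.0789), EME1 (-0.71, adjusted p = 0.129), and MUS81 (0.42, adjusted p = 0.156). Among 7 alternative settings the call of MUS81 was lost in 3, the summed pairs and the fit without the covariate included. SLX4 was also lost without the KMT2D-WT library of experiment 1 in either glucose condition (adjusted p = 0.0525 with and 0.0791 without glucose), and EME1 and MUS81 were each lost in 5 of 14 fits that left out a library (adjusted p up to 0.0849 and 0.0822). Without the covariate none of the 10 was called by edgeR (FAN1 -0.85, adjusted p = 0.0827), and 2 had an unadjusted p under 0.05, but that fit called only 70 of 18678 genes (0.375%). Since the glucose-deprived library labelled KO1 of experiment 2 lay nearer line KO2, the lines may be unevenly spread between the glucose conditions. Without the glucose-deprived KO1 library of experiment 1, every glucose-deprived KMT2D-KO library left lay nearer line KO2. SLX4 was 0.39 higher in KO1 than in KO2 with glucose, and the part of the lines in this difference was not tested.

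The other 6 genes were not called in this test. ERCC4 had a difference of -0.88 (interval -1.56 to -0.21, adjusted p = 0.0871), which was called with no filter on low counts (-0.89, adjusted p = 0.00491) and without the glucose-deprived KO1 library of experiment 1 (-1.13, adjusted p = 9.78e-04), where 6.23% and 22.5% of all genes were called. ERCC1 had 0.50 (interval 0.11 to 0.89, adjusted p = 0.0945), and was called without the glucose-deprived KO1 (0.39, adjusted p = 0.0320) or KO2 library (0.59, adjusted p = 0.0373) of experiment 1, where 22.5% and 13.8% of all genes were called. FANCD2 had -0.20 (interval -0.46 to 0.06), FANCI -0.02 (interval -0.26 to 0.22), UBE2T -0.11 (interval -0.46 to 0.25), and USP1 0.16 (interval -0.14 to 0.47). For FANCI, which was called lower in both glucose conditions, a difference larger than 0.26 in size lay outside the interval.

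**Figure D4:**
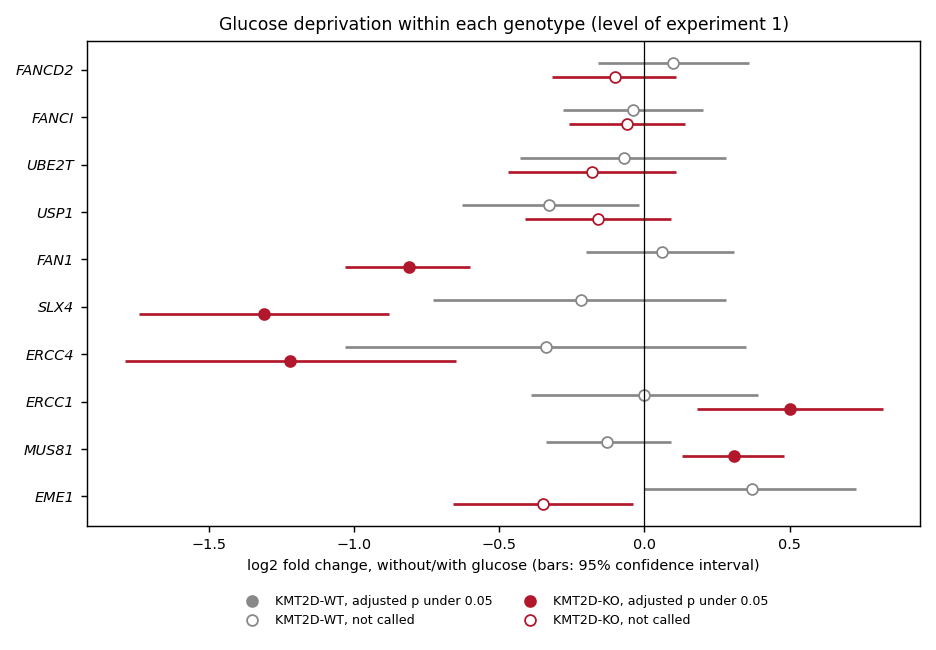
Log2 fold change of each gene after 6 h without glucose against with glucose, in KMT2D-WT (grey) and KMT2D-KO cells (red), from the edgeR fit of 14 libraries at the level of experiment 1. Bars are 95% confidence intervals. None of the 10 is called in KMT2D-WT cells, which have 1 library per condition at this level against 2 in KMT2D-KO cells, so the colours are not a test of a difference. In KMT2D-KO cells SLX4, ERCC4, and FAN1 are lower and ERCC1 and MUS81 higher.

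Within KMT2D-WT cells glucose deprivation moved none of the 10 past the threshold by edgeR, where 0.112% of 18678 genes were lower and 0.0696% higher. One of the 10, USP1 at -0.33, had an unadjusted p under 0.05, and DESeq2 with the same design called 0, beside 1.75% of 16143 genes. The contrast is read at experiment 1, the experiment in which both conditions were counted as single reads. KMT2D-WT cells have 1 library per condition there. Because so few genes were called by edgeR, the 0 of 10 says little about the 10 genes. Without the glucose-deprived KO1 library of experiment 1, the same contrast called 1.73% of 18767 genes and 0 of the 10. Why so few were called in the reported fit was not tested. The log2 values ran from -0.34 (ERCC4, interval -1.03 to 0.35) to 0.37 (EME1, interval 0.00 to 0.73), and for FAN1 the value was 0.06 (interval -0.20 to 0.31). Read at experiment 2, where the glucose conditions were counted differently, ERCC4 (-0.78, adjusted p = 0.0291) and MUS81 (-0.36, adjusted p = 0.00528) were called lower, and 5296 of 18678 genes (28.4%) were called. With 1 experiment term shared by both glucose conditions 616 genes (3.30%) were called, and 0 of the 10 by edgeR (2 with an unadjusted p under 0.05).

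Within KMT2D-KO cells 3 of the 10 were lower and 2 higher after glucose deprivation, where 14.3% of 18678 genes were lower and 13.0% higher. SLX4 fell by 1.31 (SE 0.20, adjusted p = 6.92e-04), ERCC4 fell by 1.22 (SE 0.26, adjusted p = 0.00506), and FAN1 fell by 0.81 (SE 0.10, adjusted p = 1.64e-04). These 3 were called with each library left out, with the close pairs summed, and without the covariate. ERCC1 rose by 0.50 (SE 0.15, adjusted p = 0.0253) and MUS81 rose by 0.31 (SE 0.08, adjusted p = 0.0154), and both were lost with the close pairs summed (adjusted p = 0.0613 and 0.0741) and at the level of experiment 2 (0.38, adjusted p = 0.0503, and 0.08, adjusted p = 0.447). Both were also lost without the covariate (adjusted p = 0.227 and 0.549), and MUS81 with no filter on low counts (0.33, adjusted p = 0.0988). ERCC1 was also lost without the glucose-deprived KO1 library of experiment 1 (0.29, adjusted p = 0.0576), without the KO2 library of experiment 1 with glucose (0.40, adjusted p = 0.112), and without the KMT2D-WT library of experiment 1 with glucose (0.50, adjusted p = 0.0547). EME1 had -0.35 (interval -0.66 to -0.04, adjusted p = 0.0869) and FANCD2 -0.10 (adjusted p = 0.477). Both were called lower at the level of experiment 2 (-0.60, adjusted p = 0.00301, and -0.34, adjusted p = 0.0107) and with 1 shared experiment term (-0.48, adjusted p = 0.00861, and -0.22, adjusted p = 0.0471), where 51.8% and 42.6% of all genes were called. EME1 was also called without the KO1 library of experiment 1 with glucose (-0.44, adjusted p = 0.0496) or its glucose-deprived counterpart (-0.43, adjusted p = 0.0349). The libraries with and without glucose in KMT2D-KO cells are also those of the genotype comparisons, so these values are not separate support for them.

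The 2 lines differed in 1 of the 10 genes in glucose. SLX4 was higher in KO1 than in KO2 by 0.39 (SE 0.10, adjusted p = 0.0124), with 42.0 and 34.8 CPM in KO1 against 32.3 and 26.0 CPM in KO2 of experiments 1 and 2. Of 21850 genes tested, 7.40% were lower and 7.32% higher in KO1. The call was lost when any 1 of the 4 KMT2D-KO libraries was left out (adjusted p from 0.0555 to 0.202: 0.0555 without KO1 and 0.0890 without KO2 of experiment 1, 0.165 without KO1 and 0.202 without KO2 of experiment 2). FANCD2 had -0.24 (interval -0.42 to -0.06, adjusted p = 0.0749) and FANCI 0.08 (interval -0.10 to 0.26, adjusted p = 0.650). Lines were not compared without glucose, where a label is in doubt.

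**Figure D5:**
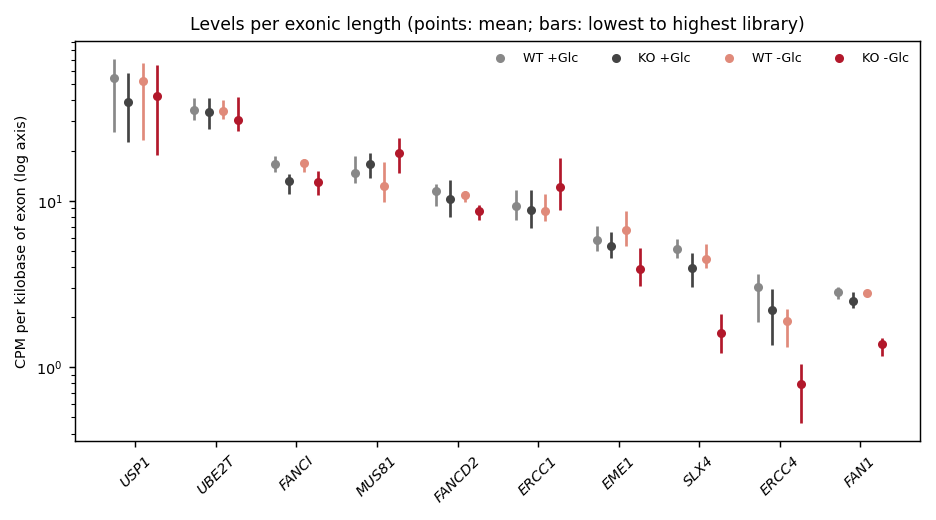
Mean CPM per kilobase of exon of each gene in the 4 groups (points, with bars from the lowest to the highest library, on a log axis), ordered by the KMT2D-WT level with glucose. USP1 and UBE2T are highest, and FAN1 and ERCC4 lowest, in every group.

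Per kilobase of exon, which allows genes to be compared, the order in KMT2D-WT cells with glucose ran from USP1 (54.5 ± 24.8 CPM per kilobase, SD, n = 3) and UBE2T (35.2 ± 5.66) through FANCI (16.6 ± 1.85), MUS81 (14.7 ± 3.36), FANCD2 (11.4 ± 1.77), ERCC1 (9.24 ± 2.12), EME1 (5.77 ± 1.08), and SLX4 (5.12 ± 0.701) to ERCC4 (3.02 ± 0.983) and FAN1 (2.85 ± 0.232). Neighbours whose libraries overlapped in this order were USP1 and UBE2T, FANCI and MUS81, FANCD2 and ERCC1, EME1 and SLX4, and ERCC4 and FAN1. The lower end moved in KMT2D-KO cells without glucose. There SLX4 was at 1.60 ± 0.357, FAN1 at 1.37 ± 0.146, and ERCC4 at 0.792 ± 0.247 (SD, n = 4), while EME1 was at 3.90 ± 0.987. MUS81 was at 19.2 ± 4.94, so that the nuclease subunits MUS81 and EME1 stood 14.7 to 23.8 against 3.07 to 5.19 CPM per kilobase, and ERCC1 and ERCC4 8.74 to 18.0 against 0.464 to 1.05. Exonic length here is the union of all annotated exons, which is long for FAN1 (16814 bases) and short for UBE2T (1652 bases), so the order depends on the annotation.

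The way the genes varied together was described over the 14 libraries, after the mean of each experiment and glucose condition had been subtracted from the log2 CPM. What remains includes the genotype and the lines, the same libraries give every pair, and no test was made. FAN1 and EME1 had a Pearson correlation of 0.95, FANCD2 and EME1 of 0.92, and FAN1 and SLX4 of 0.91. FANCD2 and FANCI had 0.69. MUS81 ran the other way, with -0.94 to FAN1, -0.91 to SLX4, and -0.91 to EME1. ERCC1 and ERCC4 had -0.07, and USP1 and FANCD2 had 0.12. Measured in the same way among the genes tested in the 14-library fit, those nearest to FAN1 were SH3BP5-AS1 (0.995), BIRC2 (0.991), and AL118506.1 (0.990), and those nearest to FANCD2 were ACAD10 (0.970), ZNF789 (0.965), and FAM185BP (0.961). FANCI was nearest to ITGA1 (0.982), LRWD1 (0.980), and ABHD5 (0.969), and ERCC1 to STARD10 (0.952), PGM1 (0.949), and MAMDC2 (0.944).

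Transcripts of the direct partners of these proteins were counted next. Of 12 partners, SLX1A and SLX1B, near-identical copies of the SLX1 nuclease gene, had at most 0.0889 and 0.122 CPM and were not tested, because they did not pass the filter on low counts. Per the methods only uniquely mapped reads were counted, so reads that map to both copies would count for neither. Their near-0 values therefore do not show low expression, and the share of such reads was not tested. Of the 10 others, 3 were lower and 1 higher in KMT2D-KO cells with glucose, and 4 were lower and 2 higher without, beside 11.7% lower and 13.0% higher, and 24.9% and 25.9%, of all genes. ATAD5, which brings USP1 to PCNA for deubiquitination, fell by 1.64 with glucose (adjusted p = 2.85e-05) and by 1.79 without (adjusted p = 6.54e-05). GEN1, a nuclease that resolves Holliday junctions as SLX4-bound nucleases do, had -0.66 with glucose (adjusted p = 0.0797) and fell by 1.99 without (adjusted p = 5.09e-04). EME2, the other partner of MUS81, rose by 1.41 with glucose (adjusted p = 2.92e-04) and by 1.06 without (adjusted p = 0.00616); the glucose-deprived levels were 7.19 ± 2.32 CPM in KMT2D-WT (SD, n = 3) and 16.1 ± 5.97 CPM in KMT2D-KO cells (SD, n = 4). DCLRE1A, a nuclease of crosslink repair, fell by 0.54 with glucose (adjusted p = 0.00631) and by 0.96 without (adjusted p = 1.89e-04). UHRF1, which binds crosslinked DNA, fell by 0.73 with glucose (adjusted p = 0.00185) and by 0.78 without (adjusted p = 2.97e-04). WDR48, the activator of USP1, had 0.22 with glucose (adjusted p = 0.121) and rose by 0.50 without (adjusted p = 0.00950). With the close pairs summed the glucose-deprived calls of ATAD5 (adjusted p = 0.0182), GEN1 (0.0285), DCLRE1A (0.0274), and UHRF1 (0.0281) held, and those of EME2 (1.05, adjusted p = 0.0823) and WDR48 (0.47, adjusted p = 0.136) were lost, leaving 4 lower and 0 higher by edgeR, beside 7.52% and 8.99% of all genes.

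Upstream and downstream genes of the pathway were counted from lists, to be read beside 11.7% lower and 13.0% higher of all genes with glucose and 24.9% and 25.9% without. Of 13 genes of the FA core complex, 2 were lower with glucose (FANCA -0.47, adjusted p = 0.00370, and FANCM -0.43, adjusted p = 0.0225) and 5 were lower and 2 higher without, with medians of 0.04 and -0.19. The largest changes without glucose were in FAAP24 (-1.24, adjusted p = 0.0212), FANCM (-1.17, adjusted p = 0.00169), and FANCA (-0.62, adjusted p = 0.0374), and to 2 decimals FANCB (-0.62, adjusted p = 0.0159) and FANCE, which rose (0.62, adjusted p = 6.41e-04), had changes of the same size as FANCA. Of 13 genes listed for homologous recombination and related steps, 4 were lower and 1 higher with glucose, and 4 lower and 2 higher without, with medians of -0.17 and -0.18. Not all genes of this list act in recombination itself. The largest among the called genes were BRCA1 (-0.44), REV3L (-0.39), and PALB2 (-0.34) with glucose, with adjusted p of 0.00436, 0.0355, and 0.0466. Without glucose they were REV3L (-0.95), BRCA1 (-0.87), and MAD2L2 (0.71), with adjusted p of 2.19e-04, 3.14e-04, and 0.00990. Of 16 nucleotide excision repair genes that act with ERCC1-ERCC4, 4 were lower with glucose and 3 lower and 1 higher without, with medians of -0.23 and -0.09. ERCC6 and XPC, which recognise stalled transcription and distorted DNA, led the called genes in both conditions (-1.02 and -0.57 with glucose, adjusted p = 4.02e-04 and 0.0109, and -1.24 and -0.95 without, adjusted p = 4.93e-04 and 2.99e-04). Next among the called genes were DDB2 with glucose (-0.45, adjusted p = 0.0252) and ERCC3 without (-0.56, adjusted p = 0.0240). With the close pairs summed, 7.52% of all genes were lower and 8.99% higher without glucose. In that fit 1 gene of the core complex (FANCE, 0.62, adjusted p = 0.0411), 2 of the list of recombination and related steps (REV3L and BRCA1, adjusted p = 0.0222 and 0.0305), and 2 of excision repair (XPC and ERCC6, adjusted p = 0.0267 and 0.0293) were called. The other glucose-deprived calls of these lists were lost, while their log2 fold changes stayed close to those of the reported fit. Among them were FAAP24 (-1.15, adjusted p = 0.164), FANCM (-1.12, adjusted p = 0.0533), FANCA (-0.68, adjusted p = 0.168), and MAD2L2 (0.76, adjusted p = 0.0909). The fit has fewer libraries, and why these calls were lost was not tested. Without the library labelled KO1 of experiment 2, 2 of the core complex, 6 of the list of recombination and related steps, and 3 of excision repair were called, where 38.5% of 16539 genes were.

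Transcripts of FANCD2, FANCI, UBE2T, USP1, and EME1 are known to vary with the cell cycle, so lists of cycle genes are given beside them, with the same shares over all genes (11.7% lower and 13.0% higher with glucose, 24.9% and 25.9% without). Of 25 S phase genes, 9 were lower and 2 higher in KMT2D-KO cells with glucose (median -0.21), and 7 lower and 4 higher without (median -0.01). Of G2 and mitosis genes, 5 of 24 were lower and 1 higher with glucose (median -0.16), and 12 of 23 were lower and 3 higher without (median -0.40). CDC45 (-1.20, adjusted p = 1.84e-04), MCM5 (-1.05, adjusted p = 1.76e-04), and RRM2 (-0.88, adjusted p = 0.0265) led the S phase list with glucose, and CDT1 (0.98, adjusted p = 6.54e-05), RRM2 (-0.97, adjusted p = 0.0409), and MCM4 (0.93, adjusted p = 5.68e-05) without. MKI67 led the mitotic list in both conditions (-1.17, adjusted p = 1.10e-04, and -1.72, adjusted p = 3.11e-05), followed by BUB1 (-0.68, adjusted p = 0.0163) and KIF11 (-0.61, adjusted p = 0.00164) with glucose and BUB1 (-1.02, adjusted p = 0.0271) and KIF20A (-0.99, adjusted p = 3.70e-04) without. The summed mitotic list stood at 6642 to 8231 CPM in KMT2D-WT and 5177 to 5975 CPM in KMT2D-KO cells with glucose, and at 5583 to 6439 and 3795 to 4687 CPM without. Much of this sum is MKI67, with means of 2420 CPM in KMT2D-WT and 1019 CPM in KMT2D-KO cells with glucose. Without glucose its means were 1770 and 528 CPM. The part of the cell cycle in the values of the 10 genes was not tested. Of the squamous markers, KRT14 (-1.74, adjusted p = 0.00627) and ITGB4 (-0.77, adjusted p = 2.24e-04) were lower with glucose, and KRT5 (2.86, adjusted p = 0.0207), KRT17 (2.16, adjusted p = 0.00359), and DSG3 (1.27, adjusted p = 0.0224) led 4 that were higher without. The lines themselves differed in these lists with glucose, where 4 of 9 squamous markers tested were lower in KO1 than in KO2 and 0 higher. Of 25 S phase genes 9 were lower in KO1 and 2 higher, and of 24 G2 and mitosis genes 5 and 2. Over all genes 7.40% were lower in KO1 and 7.32% higher. The part of the lines in the values of these lists was not tested. With the close pairs summed, where 7.52% of all genes were lower and 8.99% higher, 2 S phase genes were lower and 3 higher (CDT1 and MCM4 among them, adjusted p = 0.0193 and 0.0185). In that fit 5 G2 and mitosis genes were lower (MKI67 and KIF20A among them, adjusted p = 0.0145 and 0.0281). Not called there were RRM2 (-0.84, adjusted p = 0.241), BUB1 (-0.92, adjusted p = 0.191), KRT5 (2.73, adjusted p = 0.155), KRT17 (2.11, adjusted p = 0.0632), and DSG3 (1.15, adjusted p = 0.177). Their log2 fold changes stayed close to those above. Without the library labelled KO1 of experiment 2 the S phase calls were 5 lower and 4 higher, the G2 and mitosis calls 9 lower and 2 higher, and the squamous calls 1 higher, in the fit that called 38.5% of all genes.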

How the data were processed

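RNA-seq of 14 SCC23 libraries was read from per-library gene tables. The authors mapped reads to GRCh38 with HISAT2 and counted them per gene with featureCounts 2.0.3 on Ensembl 102, without strand, and deposited unnormalized counts (15669154 to 62968057 per library). Every row names a gene. Genes were tested in R 4.3.3 with edgeR 4.0.16 (filterByExpr with a minimum count of 10, TMM, quasi-likelihood fit and test) and Benjamini-Hochberg adjusted p-values over all genes tested, called under 0.05. Every adjusted p in the text is from this test unless DESeq2 1.42.0 is named, and intervals are 95%. Each glucose condition was fitted alone for the genotype comparisons, with experiment as a covariate that serves as the replicate block. The titles give the experiment, and differences between experiments correlated over genes between the genotypes (0.91 with and 0.75 without glucose). The study's methods name DESeq2 and no covariate, which was an alternative. The difference between glucose conditions, and the glucose effects, came from 1 fit of 14 libraries with an experiment term within each glucose condition. CPM values are TMM-normalized over 14 libraries, with exonic length from the deposited tables. Nothing in the labels says which libraries are separate cultures, so p-values measure the spread between these libraries.

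The 10 genes, the lists and the tests were chosen with earlier results of these data known. Named were the 10 genes and KMT2D, of each other list up to 3 called genes with the largest absolute log2 fold change per genotype comparison, WDR48, SLX1A, SLX1B, and EME2 always, and for 4 genes the 3 nearest by correlation (log2 CPM with a prior count of 2). DCLRE1A, UHRF1 without glucose, FANCB, FANCE, GEN1 with glucose, and the near-0 markers were described after their values were seen. Alternatives were no covariate, DESeq2, RLE scaling, no filter, an offset for gene length, single experiments and lines, summed close pairs, halved counts of the libraries counted by both mates, and leaving out each library. The glucose-deprived calls of the other lists were rerun with the close pairs summed and without the doubted library, a choice made after seeing the data. The test was checked on simulated data. Sequences are from RefSeq on GRCh38.p14.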

Additional observations from a re-analysis of the deposited data

Results flagged for a closer look

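The KMT2D-KO effect differed between the glucose conditions for 4 genes by the interaction test of edgeR, where 6.54% of all genes tested were lower and 4.73% higher. The differences were -0.87 for FAN1, -1.08 for SLX4, -0.71 for EME1, and 0.43 for MUS81 on the log2 scale, and FAN1 alone of the 4 was called after the close pairs had been summed. Of 22 sets of 4 KMT2D-KO libraries checked for a library far from the rest (the 10 genes and KMT2D in both glucose conditions), 1 had such a library, and chance gives about 1 in 20. UBE2T had 68.9 CPM in the glucose-deprived KO1 library of experiment 1 and 43.4 to 46.6 CPM in the other 3, and without this library its log2 fold change was -0.38 (adjusted p = 1.74e-06) in place of -0.26 (adjusted p = 0.196), in a fit that called 74.4% of all genes.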

How the results depend on the processing

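Of the 10 genes, 2 were called with glucose and 7 without, 4 in the difference between glucose conditions, 0 and 5 for glucose deprivation in KMT2D-WT and KMT2D-KO cells, and 1 between the lines. In the order of these comparisons, fits with no replicate block (no experiment covariate) called 0, 3, 0, 0, 3, and 0, where 4.75%, 21.8%, 0.375%, 0.123%, 17.2%, and 0.0503% of all genes were called, and DESeq2 with no covariate 0 with (12.9% of all genes) and 3 without glucose (28.8%). Samples of 1 experiment share that experiment and no further pairing was given. DESeq2 with the same design called 2 between the lines (20.7% of all genes). With glucose an offset for gene length called 0 (24.4%), experiment 1 alone 0 (1.73%), experiment 2 alone 0 (11.7%), line KO1 alone 1 (30.6%), and line KO2 alone 5 (35.0%), and without glucose experiment 1 alone called 0, as it did of all genes. Summed close pairs left 3 calls without glucose (16.5%), 1 in the difference (1.23%), and 3 for glucose deprivation in KMT2D-KO cells (15.5%), and the level of experiment 2 gave 2 in KMT2D-WT cells (28.4%). Leaving out single libraries gave 0 to 3 calls with glucose, 5 to 10 without, 1 to 6 in the difference, and 0 to 3 between the lines, while the calls over all genes ran from 10.0% to 26.1% with glucose, 34.3% to 74.4% without, 788 to 4230 genes in the difference, and 5.08% to 19.8% between the lines. The 10 calls without glucose came from the fit without the KO1 library of experiment 1, which called 74.4%. Among the fits of edgeR or DESeq2 with 0 calls, 0 to 4 of the 10 genes had an unadjusted p under 0.05. The other counts lay within 1.5 times the reported ones. The cause was not tested in any of these cases.

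Small values changed sign. With glucose FANCD2 was 0.04 with KO2 alone, and KMT2D was 0.07 with the length offset, 0.04 in experiment 2, 0.37 with KO2 alone, and -0.33 to 0.18 with single libraries left out. The difference for FANCI was 0.02 with DESeq2 and with RLE, 0.10 with the length offset, and -0.06 to 0.04 with libraries left out. For glucose deprivation in KMT2D-WT cells, the values with no block, at experiment 2, and with 1 shared experiment term were -0.07, -0.14, and -0.06 for FANCD2, 0.01, 0.04, and 0.01 for FANCI (0.02 with the length offset), and -0.03, -0.06, and -0.02 for FAN1, and USP1 was 0.03 at experiment 2. With libraries left out these ran from -0.13 to 0.02 for FANCI, -0.16 to 0.03 for UBE2T, -0.08 to 0.13 for FAN1, and -0.59 to 0.02 for ERCC4. In KMT2D-KO cells FANCD2 was 0.04 with the length offset, FANCI 0.01 with DESeq2 and RLE, 0.13 with the length offset, and 0.02 at experiment 2, and USP1 0.12 with no block, 0.19 at experiment 2, and 0.01 with 1 shared term. There FANCI ran from -0.13 to 0.05 and UBE2T from -0.37 to 0.03 with libraries left out. UBE2T was called lower in 1 of these 14 fits. Between the lines UBE2T ran from -0.12 to 0.09, FAN1 from -0.03 to 0.10, and MUS81 from -0.07 to 0.11. The lowest count of the 10 genes was 70, for ERCC4; no test of depth was made.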
